A study of Mus musculus with 14 samples.

Results

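The loci that encode the core histones H2A and H2B were followed in heads of Zcchc8 mutant mouse embryos. A locus was taken when at least 1 of its names was an H2A or H2B gene of the clusters Hist1 to Hist4, which gave 41 of the 67811 loci, with 38 distinct names. Of these, 19 are H2A loci and 22 are H2B loci, and 31 lie in Hist1 on chromosome 13, 6 in Hist2 on chromosome 3 and 4 in Hist3 on chromosome 11. None came from Hist4. The RNA came from whole heads, brain included, of C57BL/6J embryos at E12.5, as 6 Zcchc8-/- libraries (KO), 3 Zcchc8+/- libraries (HET, numbered 3 to 5) and 5 Zcchc8+/+ libraries (WT). The labels do not say which part of Zcchc8 was altered, and they do not tie each library to an embryo of its own, so the spread behind the p-values may be technical. Libraries were strand-specific and made from messenger RNA selected from total RNA.

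H2A and H2B form dimers that join an H3 and H4 core to make the nucleosome, around which DNA is wound. Most of their genes are replication-dependent. They are transcribed while DNA is copied, and their messages end just past a stem-loop, are bound there by the stem-loop binding protein SLBP, and carry no poly(A) tail. Some of the genes also give polyadenylated messages, which run past the stem-loop to a poly(A) signal and are best known from cells that have left the cell cycle. ZCCHC8 holds together the NEXT complex, which targets short-lived nuclear RNA, among it RNA that extends past normal 3' ends, for decay by the RNA exosome. A library selected by poly(A) tail captures messages that end at the stem-loop poorly, and how much of any value below came from each form was not measured.

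The stem-loops of 6 genes are shown because their transcripts represent the sequence forms and the range of changes described below. They were read from the GENCODE M21 transcripts (mm10), 5′ to 3′ along the message, with the stem-loop of 16 bases in capitals and 5 bases on either side.
Hist1h2bp (chr13:21787918-21787943, plus strand): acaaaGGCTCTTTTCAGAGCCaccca
Hist2h2aa1 (chr3:96246027-96246052, plus strand): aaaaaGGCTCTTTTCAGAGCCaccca
Hist3h2ba (chr11:58949344-58949369, plus strand): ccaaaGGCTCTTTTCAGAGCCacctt
Hist3h2a (chr11:58955167-58955192, plus strand): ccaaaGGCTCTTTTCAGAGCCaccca
Hist2h2ac (chr3:96220413-96220438, minus strand): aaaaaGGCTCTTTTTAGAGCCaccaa
Hist1h2bb (chr13:23747198-23747223, plus strand): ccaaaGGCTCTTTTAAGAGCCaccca
A stem-loop was found in the annotated transcripts of 21 of the 38 genes. It read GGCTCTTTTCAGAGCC in 18 of them, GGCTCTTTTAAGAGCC in 2 (Hist1h2bb and Hist1h2bk) and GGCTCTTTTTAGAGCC in 1 (Hist2h2ac). The first 4 genes listed carry the same 16 letters. In the genes without a match the search covered only the annotated transcript, and 11 of these models stop at or near the stop codon.

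Values are FPKM, fragments scaled to transcript length and library total, as deposited. Differences are of log2(FPKM + 0.1) between genotype means, which understates the change of low loci, and were tested with limma over the 18217 loci that reached 0.5 FPKM in at least 3 libraries. A locus was called at a Benjamini-Hochberg adjusted p under 0.05 over all of these. Of the 41 loci, 32 were tested. Of the 9 that were not, 6 were listed at 0 in all 14 libraries: Hist1h2aa and Hist1h2ba, which encode testis histones, the pseudogene Hist1h2aj, Hist1h2br, and the lower of the 2 loci that carry each of the names Hist1h2bc and Hist1h2bq. The other 3, Hist1h2ad, Hist1h2ap and the higher Hist1h2bq locus, stayed at or under 0.698 FPKM.

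In all, 10 of the loci hold other genes too, so that their values cannot be given to the histone gene alone. Among the H2A loci these are Hist1h2ag with Prss16, Hist2h2aa1 and Hist2h2aa2 each with an unnamed clone-based gene (Hist2h2aa2 also with the H3 gene Hist2h3c1), Hist2h2ac with Bola1, Hist2h3c2 and a clone-based gene, and Hist3h2a with Trim17, which encodes a ubiquitin ligase. Among the H2B loci, Hist1h2bb lies with the linker histone genes Hist1h1c and Hist1h1d and a clone-based gene. Hist1h2be lies with the linker histone gene Hist1h1e, and Hist1h2bh with Hfe and the H3 gene Hist1h3a. Hist1h2bn and Hist2h2bb each lie with a clone-based gene. Near-identical sequence adds to this: 36 of the 38 genes share at least 1 stretch of 50 bases with another member, and in 20 genes more than 50% of such stretches are shared. All stretches of Hist2h2aa2 recur in Hist2h2aa1, and 93.5% of those of Hist1h2ao recur in Hist1h2ap, while Hist2h2be and Hist2h2bb share none. No source used here says how fragments were divided between copies. The deposited coordinate ranges are also joint ones: chr13:21746911-22042944 (296034 bases) stands for 12 of the loci and chr13:23535422-23762386 (226965 bases) for 11, and 32 of the 41 lie on a range used more than once. Gene positions are therefore taken from GENCODE M21.

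Zcchc8 RNA had a lowest, median and highest value of 9.27, 15.1 and 20.6 FPKM in KO heads, was 26.0, 24.0 and 27.2 FPKM in HET heads, and was 40.8, 38.1, 40.8, 36.6 and 42.3 FPKM in WT heads. The 3 genotypes did not overlap, and RNA of the altered gene remained in KO heads. The files hold no read counts, so total depth is unknown. The lowest FPKM steps gave a depth relative to WT1 of 1.15 to 1.49 in KO, 1.23 to 1.32 in HET and up to 1.20 in WT libraries, and 28310 to 32667 loci were above 0 in KO, 27341 to 27717 in HET and 26902 to 27622 in WT libraries. Markers of neural progenitors, neurons, mesenchyme and red blood cells were present in all 3 genotypes, and the liver markers Alb, Afp and Apoa2 summed to 1.18 to 1.44 FPKM in KO, 1.37 to 1.74 in HET and 1.01 to 1.65 in WT libraries. Library KO3 stood apart for the histone loci: it was the lowest of the KO libraries at 21 of the 32 tested loci, while KO5 was the highest at 20. Counts are therefore also given without KO3. As KO3 was picked from these same values, counts and calls without it are no independent support.

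In KO heads, RNA rose at 24 of the 32 H2A and H2B loci tested, fell at 1 and was not called at 7. Over all 18217 loci, 19.0% were called higher and 5.61% lower. The median log2 difference of the 32 was 1.28, against -0.0019 over all tested loci. These counts and medians, and those by class below, lean on the filter: 8 of the 32 reached 0.5 FPKM in 3 libraries only because KO libraries were counted, and 7 of the 8 were called higher, so their direction is not independent of the filter. They are Hist1h2ac, Hist1h2ah, Hist1h2an, Hist1h2bp, Hist2h2aa1, Hist2h2ab, Hist3h2bb-ps and the lower Hist3h2ba locus, which was not called. Of all loci, 3040 passed in this way, 2236 of them called higher. Of the other 24 H2A and H2B loci, which pass on the HET and WT libraries alone, 17 were called higher, 1 lower and 6 were not called, with a median of 1.16. Among all 15177 loci that pass in that way, 8.08% were called higher and 6.73% lower, with a median of -0.03. Without KO3, 27 of 31 were called higher and 1 lower, where 19.4% of all loci were higher and 6.78% lower. Scaling moved the counts: quantile normalization gave 18 of 32 higher and 1 lower, where 12.8% of all loci were higher and 20.9% lower. The authors' matrix gave 25 of 32 higher and 0 lower, where 27.7% of all its tested loci were higher and 2.46% lower. Its 32 are 16 H2A and 16 H2B loci and not the same set, so that count changed with the loci as well as the scaling. Every KO library lay above every WT library at 19 of the 32 loci and below at 1, against 15.3% and 1.99% of all loci. In bulk tissue, a different number of cells that hold an RNA and a different amount per cell cannot be told apart.

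**Figure D1:**
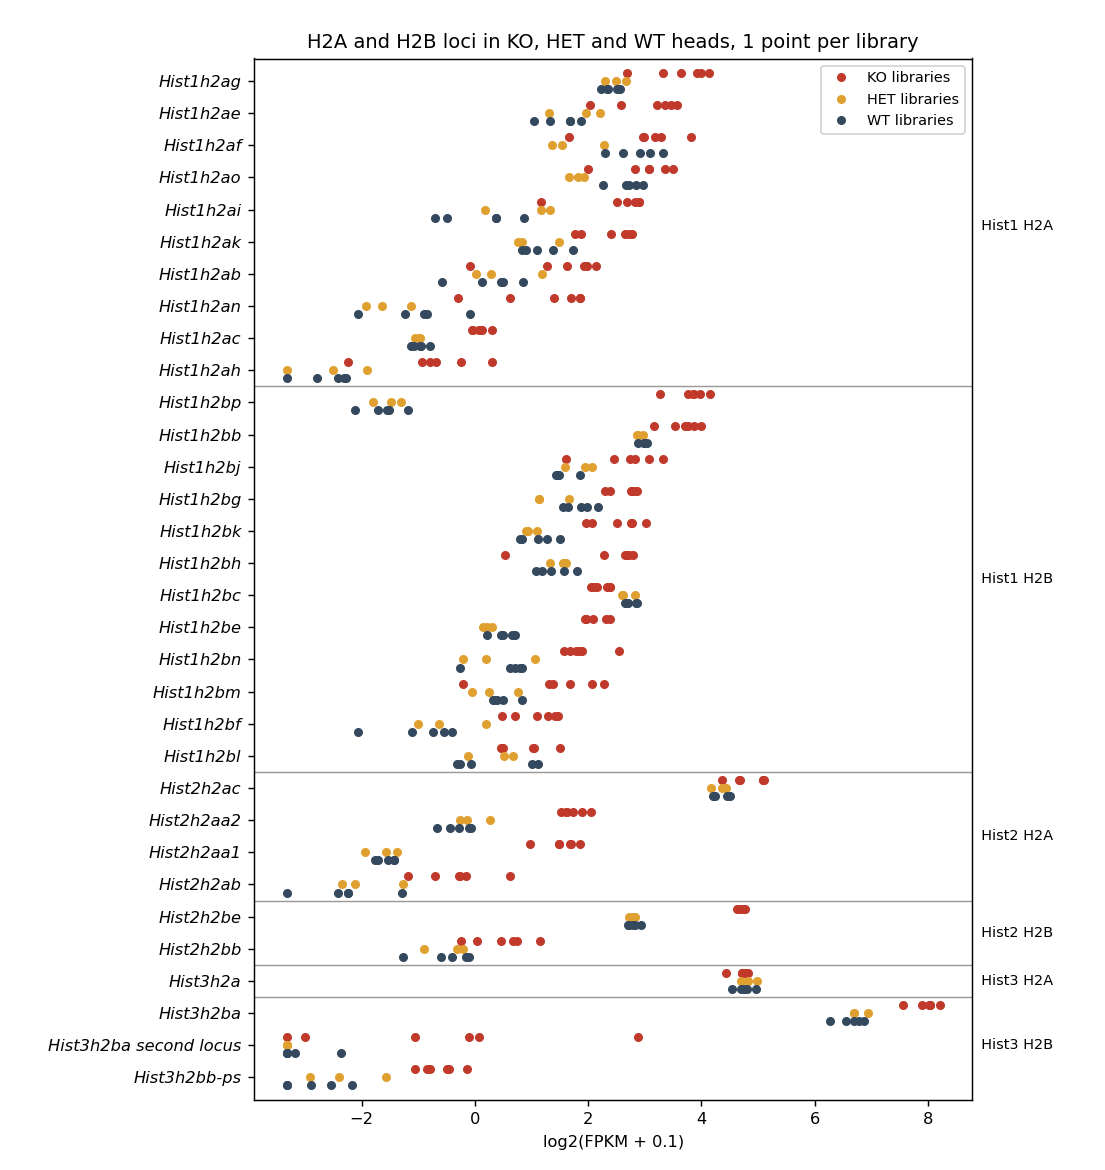
FPKM of the 32 tested H2A and H2B loci on a log2 scale (x axis, log2(FPKM + 0.1)), with 1 point per library, in KO (upper row of each locus), HET and WT heads, grouped by cluster and histone. At 19 loci all KO points lie to the right of all WT points, at Hist1h2bc they lie to the left, and the HET points lie among or near the WT points at most loci.

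Summed over all 41 loci, FPKM was 474, 454, 352, 478, 558 and 503 in the KO libraries, 203, 246 and 209 in the HET libraries and 216, 197, 240, 230 and 190 in the WT libraries. The genotypes KO and WT did not overlap, and the lowest KO sum was that of KO3. Mean and SD were 470 ± 68.1 over the 6 KO libraries, 219 ± 23.1 over the 3 HET libraries and 215 ± 21.1 over the 5 WT libraries, a KO over WT ratio of 2.19. One locus, Hist3h2ba, supplied more than any other. Without it the sums ranged from 162 to 262 in KO, from 99.4 to 123 in HET and from 103 to 124 in WT libraries, a ratio of 1.91.

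By cluster, the ratios of the summed values were alike, at 2.18 for Hist1, 2.20 for Hist2 and 2.20 for Hist3. The counts and single-locus differences were less so. Of the 22 tested Hist1 loci, 16 were higher in KO, 1 was lower and 5 were not called, with a median log2 difference of 1.19. On the HET and WT libraries alone 18 of these pass the filter, of which 12 were higher and 1 lower, with a median of 1.16. The 6 Hist2 loci were called higher, but Hist2h2aa1 and Hist2h2ab passed the filter only with the KO libraries. The median was 1.93 over the 6 loci and 1.43 over the other 4. Of the 4 Hist3 loci 2 were higher, with a median of 1.77, but Hist3h2bb-ps and the lower Hist3h2ba locus passed only with the KO libraries, and the median of the other 2 was 0.64. Both medians rest on few loci and move with the pseudocount, as given with the other settings. No test of the difference between clusters was made.

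By histone, 12 of 15 H2A loci were higher in KO and none lower, with a median log2 difference of 1.23. Of 17 H2B loci, 12 were higher and 1 lower, with a median of 1.32. Of the H2A loci that pass the filter on the HET and WT libraries alone, 7 of 10 were higher, with a median of 1.19. Of the 14 such H2B loci, 10 were higher and 1 lower, with a median of 1.06. Among all loci that pass in that way, 8.08% were called higher and 6.73% lower. Every KO library lay above every WT library at 9 H2A and 10 H2B loci, against 15.3% of all loci. Counts and medians of the histones were thus close, but summed FPKM was not: mean and SD were 119 ± 26.5 over the KO and 75.2 ± 7.30 over the WT libraries for H2A, a ratio of 1.58, and 351 ± 43.5 in KO and 139 ± 14.9 in WT for H2B, a ratio of 2.52. The H2B sum was 3.09, 3.33, 3.70, 2.53, 2.79 and 2.73 times the H2A sum in the KO libraries, 2.12, 2.002 and 2.05 times in the HET libraries and 1.95, 1.98, 1.85, 1.84 and 1.65 times in the WT libraries. These ranges did not overlap. The H2A sum includes the loci of Hist3h2a, shared with Trim17, and of Hist2h2ac, shared with Bola1 and Hist2h3c2. Their WT means were 27.0 and 19.9 FPKM, so the ratio is not that of H2A and H2B RNA alone.

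Taken cluster by cluster, the ranges of that ratio overlapped between KO and WT in Hist1 and lay apart in Hist2 and Hist3. In Hist1, H2B was 1.12 to 2.01 times H2A in KO, 1.24 to 1.51 times in HET and 1.001 to 1.44 times in WT libraries. In Hist2 it was 0.632 to 1.03 times in KO, 0.313 to 0.397 times in HET and 0.298 to 0.393 times in WT libraries. In Hist3 it was 9.10 to 10.5 times in KO, 3.66 to 3.99 times in HET and 3.34 to 3.97 times in WT libraries. In both of these clusters the KO range lay above the ranges of the other genotypes, and in each the ratio rests on 1 or 2 abundant loci, described below. The H2A side is mostly Hist2h2ac in Hist2 and only Hist3h2a in Hist3, and both loci hold genes that encode no histone.

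**Figure D2:**
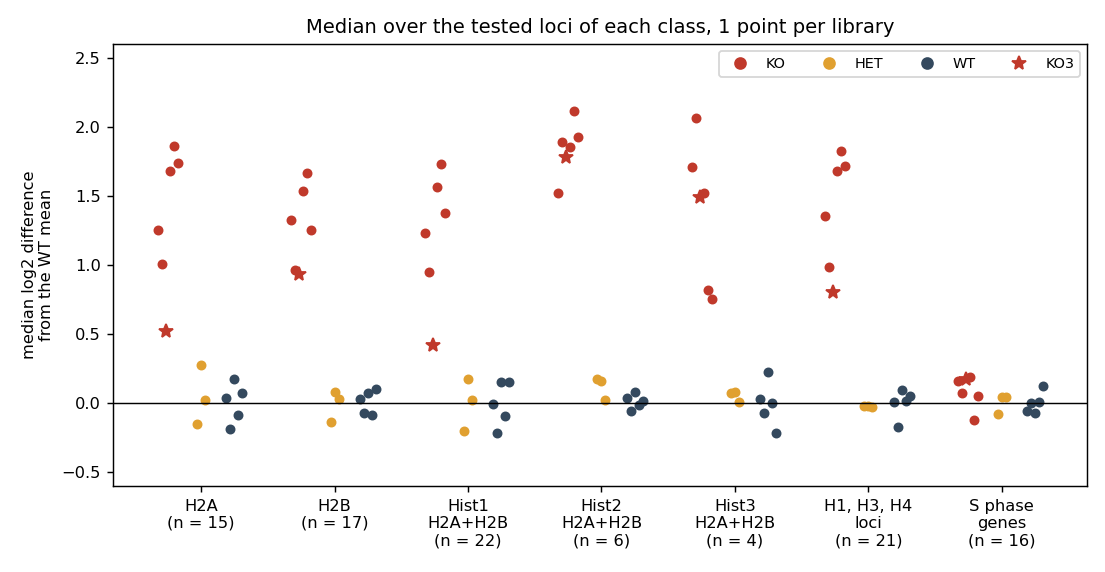
Median log2 difference from the WT mean (y axis) over the tested loci of each class (x axis, with their number), 1 point per library, KO at left, HET in the middle and WT at right of each class, with KO3 as a star. KO3 has a median of 0.42 in Hist1, under the other KO libraries, and of 1.78 in Hist2, among them, while the S phase genes stay between -0.12 and 0.19 in KO libraries.

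Library KO3 did not stand apart equally in all classes. Its median log2 difference from the WT mean was 0.42 over the Hist1 loci, where the other KO libraries had 0.95 to 1.73, but 1.78 over the Hist2 loci, where the KO range was 1.52 to 2.11. By gene model, it was 0.19 for the 11 tested loci whose annotated transcript ends at the stem-loop, where the highest KO median was 1.79. For the 11 tested loci with a long model it was 0.93, where the highest was 1.40. For the 9 tested loci with a short model and no stem-loop match it was 0.73, where the highest was 1.93. KO3 was the lowest KO library in each of these model classes. Its medians for S phase genes (0.17) and proliferation markers (0.25) were not low among the KO libraries, which ranged from -0.12 to 0.19 and from -0.03 to 0.25. The part of KO3's tissue or RNA in these values was not tested.

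Hist3h2ba (chr11:58948920-58949533, plus strand) encodes an H2B and was the most abundant of all the loci in every genotype. It had 258, 264, 190, 238, 296 and 262 FPKM in the KO libraries, 104, 123 and 103 in the HET libraries and 103, 94.2, 117, 110 and 77.5 in the WT libraries. All KO libraries were above all WT and HET libraries. Mean and SD were 251 ± 35.5 over the KO and 100 ± 15.3 over the WT libraries, with a log2 difference of 1.32 (SE 0.11, limma adjusted p = 1.77e-07). Its annotated transcript runs 169 bases past the stem-loop printed above and has a poly(A) signal in its last 40 bases. A lower locus of the same name, on the same joint range, was at 7.31 FPKM in KO3, between 0 and 0.947 in the other KO libraries, at 0 in all HET libraries and between 0 and 0.0939 in WT libraries, and was not called (adjusted p = 0.0569).

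Hist3h2a (chr11:58954685-58956830), the H2A gene of that cluster, lies on the same chromosome stretch and did not pass the test. It was at 21.6 to 28.1 FPKM in KO libraries, with a median of 26.8, at 28.3, 31.5 and 26.0 in HET and at 26.9, 25.8, 31.1, 27.8 and 23.2 in WT libraries. The groups overlapped throughout. The log2 difference was -0.04 (SE 0.08, limma adjusted p = 0.773), and its sign turned with the authors' scaling, without KO3 and without WT3 (0.13, 0.01 and 0.01). Since Trim17 shares the locus, the value is not that of H2A RNA alone. The neighbouring pseudogene Hist3h2bb-ps, an H2B copy, was low but higher in KO: its values were 0.379 to 0.810 FPKM in KO, 0.0323 to 0.237 in HET and 0 to 0.122 in WT libraries, with a log2 difference of 2.22 (SE 0.29, adjusted p = 2.05e-05). That call was lost under quantile normalization (adjusted p = 0.435).

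Hist2h2be (chr3:96221119-96223738, plus strand) encodes an H2B that is known in mice as a replication-independent variant of olfactory neurons. Its difference had the smallest standard error of the 32 loci. It had 26.4, 25.03, 27.1, 25.3, 25.2 and 24.8 FPKM in the KO libraries, 6.79, 6.53 and 6.97 in the HET libraries and 7.001, 6.79, 7.58, 6.41 and 6.49 in the WT libraries. All KO libraries lay above all others, and KO3 was the highest of the KO libraries. The log2 difference was 1.89 (SE 0.05, adjusted p = 2.31e-12). Its annotated transcript of 2620 bases holds no match to the stem-loop and has a poly(A) signal at its end.

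Hist2h2ac (chr3:96220361-96220880), the H2A gene that starts 238 bases away on the other strand, had more FPKM than Hist2h2be in HET and WT heads and had a smaller difference. It was at 20.5 to 34.1 FPKM in KO libraries, with a median of 29.7, at 17.8, 21.5 and 20.5 in HET and at 18.7, 18.5, 21.7, 22.5 and 18.3 in WT libraries. KO3, at 20.5, lay within the WT range, and the other KO libraries lay above it. The KO mean was 25.6 FPKM at Hist2h2be and 28.9 FPKM at Hist2h2ac, with overlapping ranges. The log2 difference was 0.51 (SE 0.13, adjusted p = 0.00664).

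Among the low Hist2 loci, Hist2h2aa1 (chr3:96245497-96246082) had the largest difference. It was at 1.85 to 3.53 FPKM in KO libraries, with a median of 2.92, at 0.285, 0.160 and 0.237 in HET and at 0.269, 0.193, 0.244, 0.271 and 0.204 in WT libraries. The groups were far apart, and the log2 difference was 3.11 (SE 0.16, adjusted p = 8.48e-10). Its copy Hist2h2aa2, all of whose 50-base stretches recur in Hist2h2aa1, had a log2 difference of 2.05, with 2.78 to 4.05 FPKM in KO, 0.730 to 1.11 in HET and 0.526 to 0.848 in WT libraries. Hist2h2ab, with 0.342 to 1.43 FPKM in KO and 0 to 0.311 in WT libraries, differed by 1.97 (SE 0.36, adjusted p = 5.8e-04). Hist2h2bb, an H2B gene, had 0.747 to 2.11 FPKM in KO, 0.435 to 0.768 in HET and 0.314 to 0.832 in WT libraries, so that KO and WT overlapped, and differed by 0.98 (adjusted p = 0.0112). The calls of Hist2h2ab and Hist2h2bb were lost under quantile normalization (limma adjusted p = 0.342 and 0.397). Hist2h2aa1 and Hist2h2ab passed the filter only with the KO libraries, so their calls are not independent of the filter.

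In Hist1, the largest difference of all 32 loci was that of Hist1h2bp, an H2B gene at chr13:21787461-21789213 on the plus strand. It had 13.5, 9.50, 14.2, 14.6, 15.5 and 17.7 FPKM in the KO libraries, 0.187, 0.258 and 0.306 in the HET libraries and 0.206, 0.338, 0.243, 0.131 and 0.251 in the WT libraries. The KO mean of 14.2 ± 2.70 (SD, n = 6) was 60.6 times the WT mean of 0.234 ± 0.0755 (SD, n = 5), and every KO library was above every other library. The log2 difference was 5.43 (SE 0.17, limma adjusted p = 9.25e-12). Hist1h2bp passed the filter only with the KO libraries, so its call is not independent of the filter. Among Hist1 H2B loci it was the least abundant in WT heads and the most abundant in KO heads of those tested. GENCODE gives the gene 2 transcripts, 1 of 469 bases that ends 38 bases past the stem-loop and 1 of 621 bases in 2 exons, which lacks the stem-loop and has a poly(A) signal at its end. The files do not divide the locus between them.

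Other Hist1 H2B loci rose less. Hist1h2bf was at 1.30 to 2.66 FPKM in KO libraries, with a median of 2.19, at 0.398, 1.05 and 0.541 in HET and at 0.364, 0.139, 0.496, 0.653 and 0.581 in WT libraries, a log2 difference of 2.05 (SE 0.30, adjusted p = 6.05e-05). Hist1h2be was at 3.73 to 5.15 FPKM in KO libraries, with a median of 3.98, at 1.13, 0.999 and 1.07 in HET and at 1.54, 1.48, 1.27, 1.06 and 1.31 in WT libraries, a difference of 1.60 (SE 0.11, adjusted p = 1.93e-08). KO and WT did not overlap at either locus. Hist1h2bb was at 8.82 to 15.8 FPKM in KO libraries, with a median of 13.2, at 7.27, 7.76 and 7.18 in HET and at 8.07, 7.89, 7.79, 7.22 and 7.79 in WT libraries, a difference of 0.70 (SE 0.11, adjusted p = 1.76e-04). Its KO libraries also lay above all WT libraries. The loci of Hist1h2be and Hist1h2bb also hold linker histone genes, so their values are not those of H2B RNA alone. The remaining H2B loci called higher in this cluster were Hist1h2bg, Hist1h2bj, Hist1h2bk and Hist1h2bn, with log2 differences of 0.80, 1.14, 1.41 and 1.35. Hist1h2bg was at 4.83 to 7.21 FPKM in KO, 2.09 to 3.05 in HET and 2.86 to 4.39 in WT libraries. Hist1h2bj was at 2.95 to 9.94 FPKM in KO, 2.92 to 4.10 in HET and 2.59 to 3.50 in WT libraries, so that KO3 lay within the WT range. Hist1h2bk was at 3.80 to 8.03 FPKM in KO, 1.77 to 2.05 in HET and 1.64 to 2.73 in WT libraries, and Hist1h2bn at 2.89 to 5.72 in KO, 0.763 to 1.98 in HET and 0.733 to 1.68 in WT libraries. KO and WT did not overlap at the other 3 of these loci.

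Hist1h2bc (chr13:23684199-23692908, plus strand) was the single locus that fell in KO heads. It had 4.19, 4.35, 4.04, 5.13, 5.13 and 4.97 FPKM in the KO libraries, 6.02, 7.01 and 5.98 in the HET libraries and 7.17, 6.42, 6.33, 7.08 and 6.21 in the WT libraries. All KO libraries were below all others. The log2 difference was -0.51 (SE 0.08, adjusted p = 1.17e-04). With the authors' quantile-normalized matrix as input, in which the median of all loci shifts by 0.16, it was -0.11 and not called (adjusted p = 0.616). Its only annotated transcript has 2 exons and no stem-loop match. Its neighbour on the other strand, the H2A gene Hist1h2ac, whose model runs 2010 bases past its stem-loop, rose: it was at 0.864 to 1.14 FPKM in KO, 0.381 to 0.414 in HET and 0.355 to 0.477 in WT libraries, a difference of 1.07 (SE 0.11, adjusted p = 1.94e-06).

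The largest differences among Hist1 H2A loci were those of Hist1h2ai and Hist1h2an. Hist1h2ai was at 2.14 to 7.38 FPKM in KO libraries, with a median of 6.70, at 1.03, 2.41 and 2.15 in HET and at 1.19, 0.608, 1.19, 0.512 and 1.73 in WT libraries, a log2 difference of 2.42 (SE 0.36, adjusted p = 9.78e-05). KO and WT did not overlap, but the lowest KO value, that of KO3, lay under 2 of the HET values. Hist1h2an was at 0.712 to 3.52 FPKM in KO libraries, with a median of 2.83, at 0.164, 0.219 and 0.359 in HET and at 0.434, 0.140, 0.454, 0.326 and 0.840 in WT libraries, a difference of 2.21 (SE 0.40, adjusted p = 5.28e-04). Here KO3 lay under the highest WT value. Hist1h2an passed the filter only with the KO libraries, so its call is not independent of the filter.

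The more abundant Hist1 H2A loci fell into those that rose and those that did not. Hist1h2ag, the highest of them in KO and HET heads, was at 6.34 to 17.4 FPKM in KO libraries, with a median of 13.8, at 4.80, 6.25 and 5.55 in HET and at 5.01, 5.56, 5.81, 4.56 and 4.95 in WT libraries, a difference of 1.23 (SE 0.21, adjusted p = 2.74e-04). Hist1h2ae was at 4.01 to 11.8 FPKM in KO libraries, with a median of 9.65, at 2.38, 4.54 and 3.81 in HET and at 3.12, 1.96, 3.56, 3.09 and 2.41 in WT libraries, a difference of 1.52 (SE 0.27, adjusted p = 4.86e-04). Both were above WT in all KO libraries. Also called higher were Hist1h2ab, Hist1h2ah and Hist1h2ak, with differences of 1.21, 1.85 and 1.18. Hist1h2ab was at 0.836 to 4.28 FPKM in KO, 0.908 to 2.16 in HET and 0.567 to 1.70 in WT libraries, with KO3 within the WT range. Hist1h2ah was low, at 0.113 to 1.13 FPKM in KO, 0 to 0.165 in HET and 0 to 0.107 in WT libraries, and Hist1h2ak was at 3.32 to 6.77 in KO, 1.60 to 2.72 in HET and 1.68 to 3.21 in WT libraries. At both of these all KO libraries lay above all WT libraries. The Hist1h2ab call (adjusted p = 0.031) was lost without WT2, WT4, KO1, KO4, KO5 or KO6, with adjusted p values over all libraries left out in turn of 7.07e-04 to 0.0872, and also with no filter, under quantile normalization and with the replicate number as a block (0.0715, 0.163 and 0.0774). Under quantile normalization Hist1h2ac and Hist1h2ah were not called either (0.182 and 0.848). Both had passed the filter only with the KO libraries, so their calls are not independent of the filter.

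Hist1h2af and Hist1h2ao showed another order of the genotypes. Hist1h2af was at 3.08 to 14.02 FPKM in KO libraries, with a median of 8.40, at 2.47, 4.77 and 2.79 in HET and at 6.00, 4.81, 8.47, 9.94 and 7.48 in WT libraries. Hist1h2ao was at 3.89 to 11.3 FPKM in KO libraries, with a median of 8.31, at 3.72, 3.42 and 3.06 in HET and at 7.10, 4.68, 6.26, 7.68 and 6.46 in WT libraries. At both, all HET libraries were below all WT libraries and KO overlapped WT. The KO minus WT differences were 0.13 (SE 0.32, adjusted p = 0.82) and 0.28 (SE 0.22, adjusted p = 0.403). The second was called without KO3 (0.48, adjusted p = 0.0215).

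The other loci not called in KO against WT were Hist1h2bh, Hist1h2bl and Hist1h2bm, with log2 differences of 0.88, 0.54 and 0.94 and adjusted p values of 0.0793, 0.216 and 0.0617. In Hist1h2bh, KO3 was at 1.35 FPKM, the other KO libraries at 4.77 to 6.84, HET at 2.41, 2.96 and 2.85 and WT at 2.02 to 3.40. In Hist1h2bm, KO3 was at 0.762 FPKM, the other KO libraries at 2.37 to 4.78, HET at 0.867 to 1.59 and WT at 1.15 to 1.69. Without KO3 both were called higher, with differences of 1.23 (limma adjusted p = 5.37e-06) and 1.27 (adjusted p = 2.02e-04). KO3 is the lowest KO library at both, so leaving it out raises the differences by itself. Hist1h2bl was at 1.28 to 2.72 FPKM in KO, 0.816 to 1.502 in HET and 0.704 to 2.06 in WT libraries, and these overlapped.

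**Figure D3:**
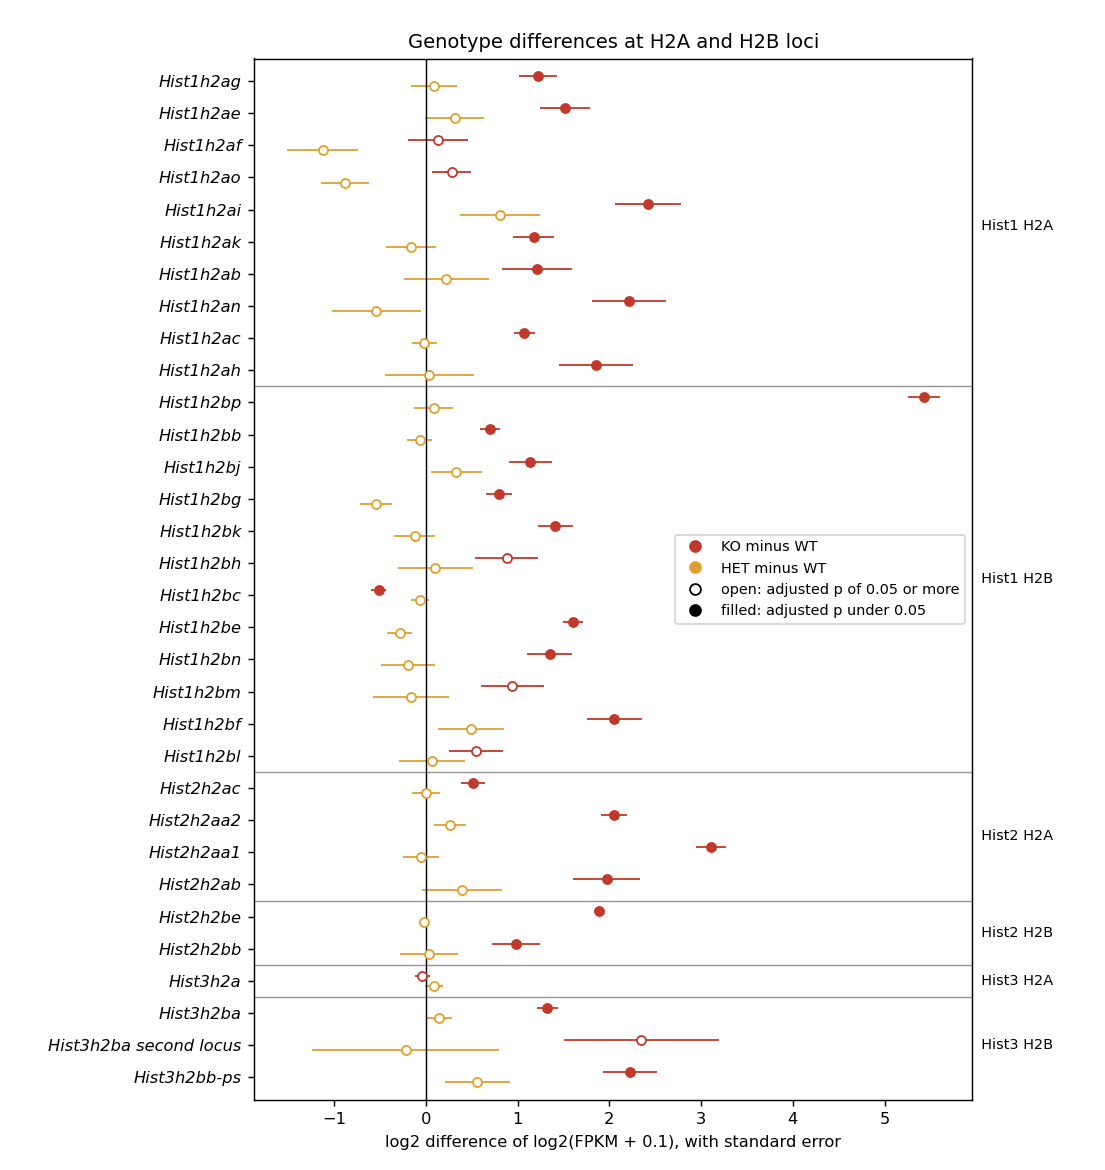
Log2 differences of log2(FPKM + 0.1) with their standard errors (x axis) at the 32 tested loci (y axis), for KO minus WT (red, upper) and HET minus WT (yellow, lower), filled where the limma adjusted p is under 0.05. The KO minus WT difference spans -0.51 at Hist1h2bc to 5.43 at Hist1h2bp, and no HET minus WT difference is filled.

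No H2A or H2B locus was called in HET heads. Of the 32, limma called 0 in HET against WT, where 1 of all 18217 loci was called higher (0.00549%) and 0 lower. At an unadjusted p under 0.05 there were 3, against 1.94% of all loci, and all had negative differences: Hist1h2ao with -0.89, Hist1h2bg with -0.54 and Hist1h2af with -1.13, each with a limma adjusted p of 1.0. The median difference over the 32 loci was 0.02. All HET libraries were below all WT libraries at 2 of the 32 loci, against 1.43% of all loci, and above at none, against 1.05%.

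KO against HET gave 25 loci called higher and 1 lower, against 17.9% and 4.36% of all loci, with a median difference of 1.30. The tested loci include the 8 that passed the filter only with KO libraries, so these counts and the median lean on the filter too. The shares of all loci hold such loci as well. For this comparison, neither was split by passage on the HET and WT libraries alone. The KO libraries serve in both comparisons, so the comparisons are not independent of each other. Every KO library was above every HET library at 18 loci and below at 1, against 17.7% and 5.19% of all loci. Hist1h2af and Hist1h2ao, not called in KO against WT, were called higher in KO than in HET, by 1.26 (SE 0.38, adjusted p = 0.0269) and 1.17 (SE 0.25, adjusted p = 0.00278). Hist1h2bc was again lower, by -0.45 (SE 0.09, adjusted p = 0.00203).

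Loci rose in each class of annotated message end. The transcripts of 13 genes end within 100 bases past the stem-loop, 12 genes have a longer model, 11 have a short model without a stem-loop match and 2 are pseudogenes. Of the 11 tested loci with a stem-loop end, 9 were higher in KO, with a median log2 difference of 1.21. Of the 11 tested with a long model, 7 were higher and 1 lower, with a median of 1.32. Of the 9 tested with a short model and no match, 7 were higher, with a median of 1.35. Some of these loci passed the filter only with the KO libraries, so the counts and medians lean on the filter. They are Hist2h2aa1 in the first class and Hist1h2ac, Hist1h2bp and the lower Hist3h2ba locus among the long models. Among the short models they are Hist1h2ah, Hist1h2an and Hist2h2ab. The classes were not split by passage on the HET and WT libraries alone. Over all tested loci, 19.0% were called higher and 5.61% lower. Summed FPKM in KO over WT was 1.87 for the first class, 2.30 for the long models, which include Hist3h2ba, and 2.09 for the short ones.

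Many H2A and H2B genes stand head to head, with a short spacer that serves as the promoter of both. The annotation gave 14 such pairs, with 172 to 305 bases between the starts. Spacers of 3 pairs are shown because their members changed by unequal amounts. They are the plus strand of GRCm38.p6 between the RefSeq gene starts, from RefSeq promoter windows, with CCAAT boxes (CCAAT or ATTGG), octamers (ATTTGCAT or ATGCAAAT) and TATA boxes (TATAAA or TTTATA) in capitals.
Hist1h2an to Hist1h2bp (chr13:21787249-21787460): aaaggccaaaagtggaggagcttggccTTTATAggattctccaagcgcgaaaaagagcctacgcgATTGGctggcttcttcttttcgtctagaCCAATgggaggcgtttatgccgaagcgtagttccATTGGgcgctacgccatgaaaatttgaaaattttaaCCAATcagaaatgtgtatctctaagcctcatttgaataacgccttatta
Hist2h2ac to Hist2h2be (chr3:96220881-96221071): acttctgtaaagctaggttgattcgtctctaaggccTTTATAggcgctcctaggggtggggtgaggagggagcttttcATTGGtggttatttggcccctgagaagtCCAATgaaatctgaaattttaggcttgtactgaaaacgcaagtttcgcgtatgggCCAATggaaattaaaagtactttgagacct
Hist1h2ac to Hist1h2bc (chr13:23683960-23684198): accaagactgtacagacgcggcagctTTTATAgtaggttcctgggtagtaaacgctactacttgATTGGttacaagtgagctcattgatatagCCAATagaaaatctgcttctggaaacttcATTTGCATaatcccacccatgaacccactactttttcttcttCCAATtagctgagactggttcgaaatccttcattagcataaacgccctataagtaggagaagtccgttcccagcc
The first spacer holds 4 CCAAT boxes and 1 TATA box, the second 3 and 1, and the third 3 and 1 and an octamer as well. The motifs do not overlap in these 3 spacers. In the table's windows of 250 bases before to 50 after each start, which matched 34 of the 38 genes, a CCAAT box on either strand was found in 18 of 18 H2A and 16 of 16 H2B genes, against 41.1% of 27025 genes. The octamer, known from H2B promoters, was found in 7 of 18 H2A and 7 of 16 H2B genes, against 1.97% of all genes. A TATA box was found in 11 of 18 and 8 of 16, against 15.7%. Partners share part of their windows, so the windows are not independent. These matches describe the letters and no binding.

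In 9 of the 14 pairs both genes were tested. Both were called higher in KO in 6 pairs, and in 3 pairs 1 gene was higher and the other was not. Over all tested loci, 19.0% were called higher. Hist1h2ac, Hist1h2ah, Hist1h2an, Hist1h2bp and Hist3h2bb-ps passed the filter only with the KO libraries, so the calls of their pairs are not independent of the filter. Pairs with near-equal differences were Hist1h2ag and Hist1h2bj (1.23 and 1.14) and Hist1h2ak and Hist1h2bn (1.18 and 1.35). The widest gap was that of Hist1h2an and Hist1h2bp, at 2.21 and 5.43: the means were 2.47 FPKM in KO and 0.439 in WT heads for the H2A gene and 14.2 in KO and 0.234 in WT heads for the H2B gene. Of the 3 split pairs, Hist1h2ac rose while Hist1h2bc fell, Hist1h2ai rose while Hist1h2bl was not called, and Hist3h2bb-ps rose while Hist3h2a was not called. The difference within a pair was not tested.

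**Figure D4:**
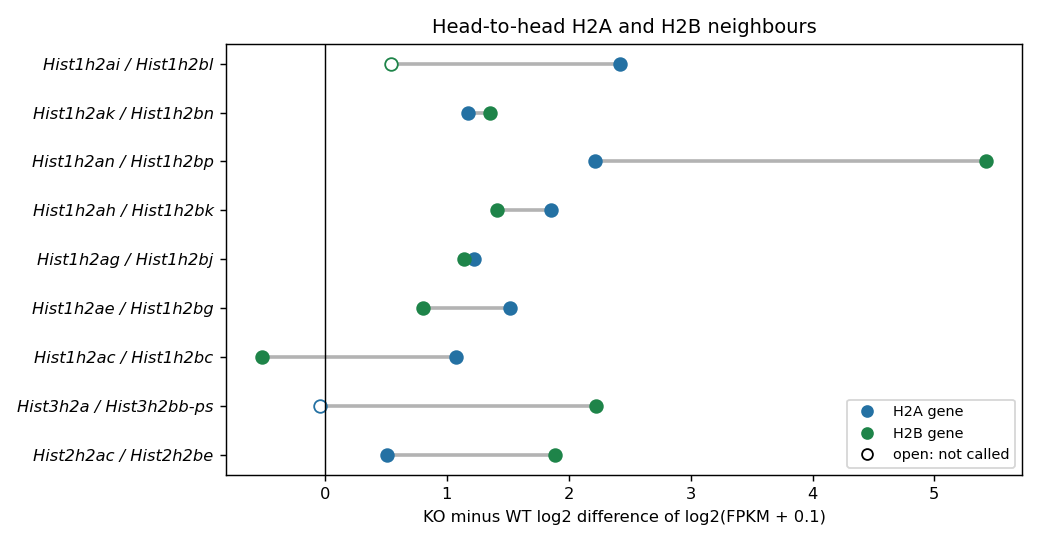
KO minus WT log2 difference of log2(FPKM + 0.1) (x axis) of the H2A gene (blue) and the H2B gene (green) in the 9 head-to-head pairs with both genes tested (y axis), open where not called. The pairs lie between 0.09 apart at Hist1h2ag and Hist1h2bj and 3.21 apart at Hist1h2an and Hist1h2bp.

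The other histones and the genes of histone message making give the setting, where 19.0% of all tested loci were called higher and 5.61% lower. These lists were not split by passage on the HET and WT libraries alone, so their counts may lean on the filter too. Of 24 loci of the replication-dependent H1, H3 and H4 genes, 21 were tested and 16 were higher in KO, none lower, with a median log2 difference of 1.41. Among these, the locus of the H4 gene Hist1h4i, which carries 3 other names, had 302 to 584 FPKM in KO, 25.2 to 29.5 in HET and 17.4 to 22.1 in WT libraries (4.48, SE 0.13, adjusted p = 5.99e-12), and Hist1h1d, a linker histone locus that also holds H3 genes, differed by 2.26 (SE 0.17, adjusted p = 3.71e-08). Of 6 genes of replication-independent H2A variants, limma called 0 and also found 0 at an unadjusted p under 0.05, with a median of 0.03. The smallest p values were those of H2afj, with 0.31 (adjusted p = 0.208), and H2afz, with 0.10 (adjusted p = 0.227). Of 21 genes for histone transcription and message ends, 2 were higher and 1 lower, with a median of 0.03. Srrt, which encodes the cap-binding partner ARS2, rose by 0.31 (SE 0.06, adjusted p = 0.00132), and the locus of Hinfp, an activator of H4 genes, which also carries the name Abcg4, fell by 0.33 (SE 0.09, adjusted p = 0.0116).

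Markers of the cell cycle and of cell types were measured beside these values. The share over all tested loci was again 19.0% higher and 5.61% lower. Of 16 S phase genes 1 was called higher, Rrm2 of ribonucleotide reductase, by 0.18 (SE 0.06, adjusted p = 0.0477), and the median was 0.10. Tyms, which makes thymidylate, had a difference of -0.15 (adjusted p = 0.083). The S phase genes summed to 1068 to 1281 FPKM in KO, 1081 to 1171 in HET and 1089 to 1229 in WT libraries. Of 5 proliferation markers 3 were higher, with Mki67 at 0.21 (adjusted p = 0.0277) and Top2a at 0.19 (adjusted p = 0.043), and their sums were 426 to 497 in KO, 401 to 435 in HET and 417 to 455 in WT libraries. Of 5 neural progenitor markers, Sox2 was higher (0.23, adjusted p = 0.0469), of 4 neuron markers limma called 0 (1 at an unadjusted p under 0.05) and of 5 mesenchyme markers Col1a1 and Col1a2 were lower (-0.36 and -0.39). The part of cell cycle or cell make-up in the histone differences was not tested.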

How the data were processed

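Messenger RNA libraries, per the labels' protocols, were made from total RNA of whole E12.5 heads. There were 6 KO, 3 HET and 5 WT libraries, grouped by the genotype in the labels. Per the submitters' processing notes, bcl2fastq, FastQC 0.10.0, TopHat2 2.1.0, Partek and Cuffdiff were used with the genome build mm10, without a role for each. The authors deposited FPKM values for 67811 loci per library, and a matrix of log2 FPKM values with equal quartiles and blanks where FPKM is 0, used here as an alternative. Total depth is unknown, which leaves the precision of low values unknown too. Relative depth was read from the most frequent ratio to WT1 among loci under 0.3 FPKM, in log2 bins of 0.02.

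From the deposited values, log2(FPKM + 0.1) was fitted with limma-trend (limma 3.58.1, R 4.3.3, robust), all 14 libraries in 1 fit without covariates, after a filter of 0.5 FPKM in 3 libraries. P-values were adjusted over all 18217 loci (Benjamini-Hochberg, 0.05). The fit was tested on simulated data. Gene models and stem-loops came from GENCODE M21, with a model called long where it ran over 100 bases past the stem-loop or, without one, past the stop codon. Promoter windows came from RefSeq (GRCm38.p6). Tables and figures used Python 3.11.15, pandas 2.3.3, numpy 2.4.6 and matplotlib 3.10.9.

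The loci, lists and tests were chosen with earlier results of these data known. Values were given for Zcchc8, for the 3 called loci with the largest difference (mean of at least 1 FPKM in KO or WT) and the 2 most abundant loci of each cluster and histone, for those called lower, and for those not called. Of other lists, the 2 genes with the smallest p were named. Some named outside this rule (Hist1h2ac, Hist2h2ab, Hist3h2bb-ps) were chosen after their values were seen. The test of 1 marker is not reported here. Alternatives were other pseudocounts, filters and scalings, the replicate number as a block, loci with a single name, fits without the uncompared genotype and leaving out each library.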

Additional observations from a re-analysis of the deposited data

Results flagged for a closer look

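Each group of 4 or more libraries was searched for a library far from its neighbours, over 64 groups of values, where chance alone gives about 1 in 20. This marked 7. Hist1h2ai was 2.14 FPKM in KO3, where the next KO library was at 5.62. Hist3h2a was 21.6 FPKM in KO3, where the next was at 26.2. The lower Hist3h2ba locus was 7.31 FPKM in KO3, where the next was at 0.947, and 0.0939 FPKM in WT1, where the next was at 0.0110. Hist1h2bn was 5.72 FPKM in KO5, where the next was at 3.60, and 0.733 FPKM in WT1, under the other WT libraries, which began at 1.44. Hist1h2bj was 3.50 FPKM in WT5, where the next WT library was at 2.69.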

How the results depend on the processing

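Among the 32 loci, 24 higher and 1 lower became 18 and 1 under quantile normalization (12.8% and 20.9% of all loci). With the authors' matrix 25 were higher and 0 lower (27.7% and 2.46%), but among a partly different set of 32 loci. Calls over all loci were 4485, of which 3463 higher and 1022 lower. They were 2657 with a stricter filter, and with the authors' matrix 7641 (7017 higher, 624 lower). Quantile normalization gave 2338 higher and 3801 lower. Medians moved most in small classes. With a pseudocount of 0.5 the Hist2 and Hist3 medians were 1.30 and 1.10, and with a pseudocount of 1 those of H2B, Hist2 and Hist3 were 0.87, 0.97 and 0.72. Under quantile normalization they were 1.02, 1.10 and 0.83, and the stricter filter left 2 Hist3 loci with 0.64. The cause was not tested. Counting only loci that reach the filter on the HET and WT libraries alone, chosen after seeing the data, gave 18 calls among the H2A and H2B loci and 2249 over all loci, and medians of 1.43 in Hist2 and 0.64 in Hist3; these are parts of the same fit with fewer loci.

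Leaving out 1 library at a time gave 22 to 28 of the loci called in KO against WT, 18 to 28 in KO against HET and 0 in HET against WT. The Hist3 median then ranged from 0.63 (without KO2, 2 loci left) to 1.84. Hist1h2af, 0.13 with all libraries, turned to -0.0052 without WT2 and ranged from -0.034 (without KO5) to 0.40 (without KO3). Hist3h2a, -0.04 with all libraries, was 0.13 with the authors' matrix, 0.012 without WT3, and ranged from -0.094 (without WT5) to 0.012 (without KO3). With the replicate number as a block, the calls among the loci were 24 higher and 1 lower, the lower Hist3h2ba locus was called (2.79, adjusted p = 0.0362) and the Hist1h2ab call was lost. Libraries with the same number did not deviate together (correlations of -0.114 to 0.1, against -0.115 to 0.106 with different numbers). That gives no sign of pairing by number, but it cannot show that the samples are unpaired. Total depth is unknown, so the counting error of low loci cannot be given.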
